A study of Mus musculus with 6 samples.

Results

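The genes described were 7 enzymes of cholesterol metabolism, chosen by gene name: Hmgcs1, Idi1, Fdft1, Sqle, Lss and Dhcr7 of the synthesis pathway, and Cyp46a1, which hydroxylates cholesterol. Of these 7, 6 were found by name among the 41386 genes of the deposited table, and no row was named Idi1. A single unnamed row carried the annotation of an isopentenyl-diphosphate Delta-isomerase, the activity of Idi1 and of its relative Idi2. It lay between Wdr37 and Gtpbp4, where the GRCm38 reference places both Idi1 and Idi2 among 7 genes. The row was therefore described as the isomerase row, assigned to neither gene and not counted among the 6.

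Expression was measured by RNA-seq of total RNA from the hippocampus of C57BL/6 mice (C57BL/6J in the study's methods) aged 56 days, in 3 libraries of mice after cerebral ischemia and reperfusion (IR24) and 3 libraries of sham-operated mice (Sham). In IR24, a focal middle cerebral artery occlusion of 1.5 h was followed by 24 h of reperfusion. Per the study's methods the mice were male, the hippocampus was taken from the operated side, and hippocampi of several mice were pooled for a replicate. The spread between libraries is therefore a spread between pools. The labels name no transgene and no drug for any group.

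Cholesterol synthesis starts from acetyl-CoA and runs through HMG-CoA, mevalonate and isoprenoid units to squalene, which is cyclised to lanosterol and then trimmed to cholesterol. The brain makes its own cholesterol, since lipoproteins of the blood hardly cross the blood-brain barrier, and adult synthesis is ascribed mainly to glia. Surplus cholesterol leaves the brain chiefly as 24S-hydroxycholesterol, the product of Cyp46a1, an enzyme found mainly in neurons. Most synthesis genes are activated by SREBP2, a transcription factor released from the membrane by SCAP and a pair of proteases when sterols are low.

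Upstream sequence was taken for the genes on which the results turn: Hmgcs1, the first member of the pathway, Lss and Cyp46a1, the members called higher and lower, and Msmo1, another synthesis enzyme with a clear difference. The 250 bases before the annotated start are given 5′ to 3′ in the direction of the gene, from RefSeq on GRCm38.p6, a different build from that of the count table. Capitals mark the sterol regulatory element TCACNCCAC, the NF-Y motif CCAAT and the Sp1 motif GGGCGG, each on either strand, so that ATTGG and CCGCCC are the reverse complements of the last pair. No marked motif overlapped another in these windows. The windows are chr13:119690101-119690350 (plus strand) for Hmgcs1, chr10:76531355-76531604 (plus strand) for Lss, chr12:108334066-108334315 (plus strand) for Cyp46a1 and chr8:64733579-64733828 (minus strand) for Msmo1.
Hmgcs1: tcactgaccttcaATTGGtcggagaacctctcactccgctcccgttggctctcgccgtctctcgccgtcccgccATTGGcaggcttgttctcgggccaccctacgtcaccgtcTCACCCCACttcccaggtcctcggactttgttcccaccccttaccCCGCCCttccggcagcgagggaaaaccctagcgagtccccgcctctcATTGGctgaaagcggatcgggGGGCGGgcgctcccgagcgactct
Lss: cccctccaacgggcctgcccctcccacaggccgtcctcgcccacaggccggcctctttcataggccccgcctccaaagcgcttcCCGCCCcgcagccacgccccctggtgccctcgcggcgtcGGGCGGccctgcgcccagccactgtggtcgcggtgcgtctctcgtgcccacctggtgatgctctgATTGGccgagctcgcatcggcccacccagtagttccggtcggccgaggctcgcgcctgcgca
Cyp46a1: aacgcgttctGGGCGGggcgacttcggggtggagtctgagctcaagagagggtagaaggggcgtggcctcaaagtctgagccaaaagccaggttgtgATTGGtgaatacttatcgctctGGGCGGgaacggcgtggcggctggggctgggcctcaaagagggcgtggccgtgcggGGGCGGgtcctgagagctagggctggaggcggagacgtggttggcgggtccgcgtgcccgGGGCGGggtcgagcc
Msmo1: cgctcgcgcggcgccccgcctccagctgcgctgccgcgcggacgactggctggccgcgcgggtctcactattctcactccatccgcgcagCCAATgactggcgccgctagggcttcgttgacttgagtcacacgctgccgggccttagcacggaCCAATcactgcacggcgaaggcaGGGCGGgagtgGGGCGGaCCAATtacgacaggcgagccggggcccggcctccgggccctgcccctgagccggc
Hmgcs1 held 1 sterol regulatory element, 3 NF-Y motifs and 2 Sp1 motifs. Lss held 1 NF-Y motif and 2 Sp1 motifs, Cyp46a1 1 and 4, and Msmo1 3 and 2. Over 32851 windows of 250 bases of all genes, 1.05% held TCACNCCAC, 33.8% CCAAT and 32.7% GGGCGG. A window was at hand for 5 of the 7 members and for 32 of 43 genes of the pathway lists. Of these 32 genes, 1 held TCACNCCAC, 24 held CCAAT and 25 held GGGCGG, in any of up to 3 windows for a gene. Hmgcs1 was that 1 gene with the sterol regulatory element as spelled here. These matches describe letters and were not tested for binding.

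The 6 libraries held 37493042 to 44788547 counted reads. CPM below are counts of a gene for every 1000000 counts of a library, whose size was scaled by TMM (the trimmed mean of M-values). Among 18569 genes tested, 41.8% passed both limits of a call, which were 0.05 for the edgeR adjusted p and 1.2 for the fold change, with 21.8% higher and 19.9% lower in IR24. The 3 IR24 libraries all exceeded the 3 Sham libraries in 29.3% of the genes and all lay below them in 28.1%. All 10 markers of hippocampal pyramidal and granule cells were counted in every library, a marker with as few as 14 counts in IR24 replicate 1. At this depth such counts could hardly be absent, so they do not test the tissue label. Ttr, the defining choroid plexus transcript, had 810 counts in IR24 replicate 3 and 385 in Sham replicate 1 against 68521 to 140679 in the other 4 libraries. When libraries were not scaled by TMM, the median over all genes of the log2 fold change moved from 0.03 to 0.28, and the calls moved from 4054 higher and 3702 lower to 6334 and 2027. The directions of small changes below are therefore relative to the scaling.

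Among the 6 members, Lss was called higher and Cyp46a1 was called lower after ischemia and reperfusion. Hmgcs1, Fdft1, Sqle and Dhcr7 did not pass the test. The 2 calls among 6 members stand beside 41.8% of all genes, and 1 in each direction beside 21.8% and 19.9%. In 3 members the IR24 libraries lay above the Sham libraries and in 2 below, beside 29.3% and 28.1% of all genes. With library size only, 5 of the 6 were called, 4 higher and 1 lower, in place of 1 and 1, beside 6334 and 2027 of 18569 genes. The median log2 fold change of the 6 was 0.16, against 0.03 over all genes tested.

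**Figure D1:**
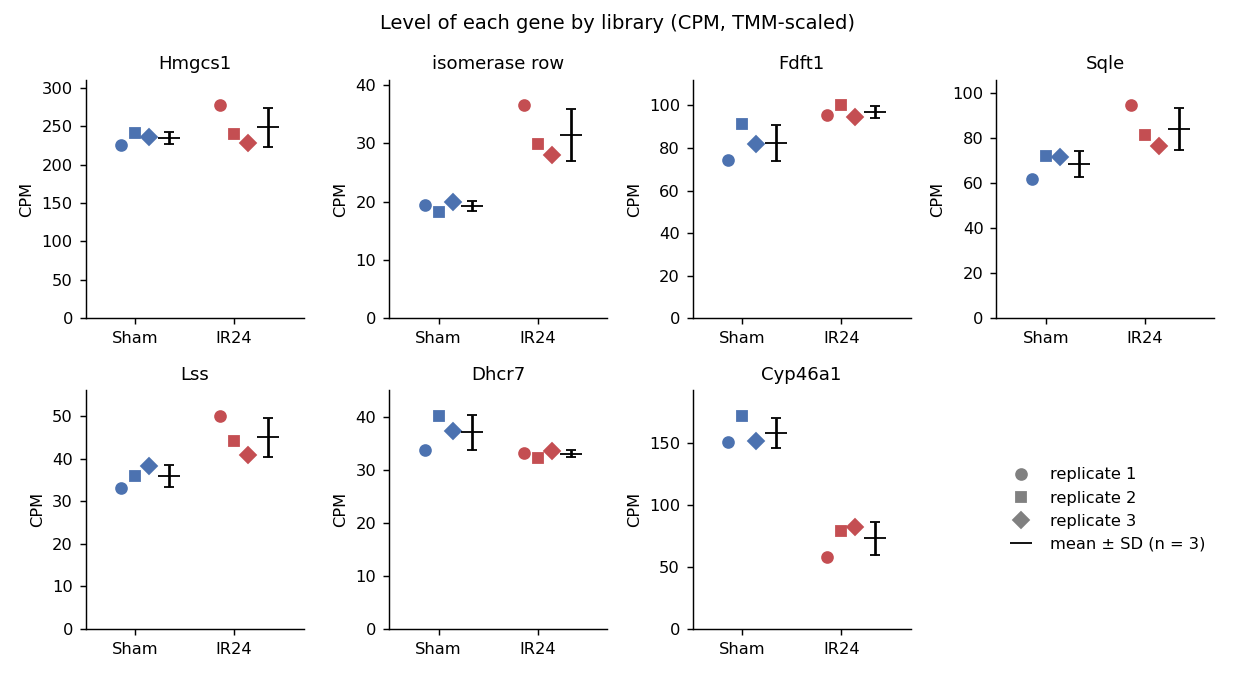
Level of each member and of the isomerase row in CPM (y axis, from 0) in the 3 Sham and 3 IR24 libraries, with the replicate number as the symbol and the mean ± SD as a bar. Cyp46a1 lay at 58.0 to 82.7 CPM in IR24 against 151 to 172 in Sham, whereas the points of Hmgcs1 overlapped between groups.

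Hmgcs1 (MGP_BALBcJ_G0020926, chromosome 13 from 118324618 to 118342206 on the BALB/cJ assembly, as are all positions of genes below) encodes the HMG-CoA synthase of the cytosol. It had 277, 239 and 229 CPM in IR24 replicates 1, 2 and 3, and 225, 241 and 236 CPM in Sham. The groups overlapped, and IR24 replicate 1 alone stood above every Sham library. The mean was 248 ± 25.5 CPM in IR24 and 234 ± 7.83 CPM in Sham (mean ± SD, n = 3 per group). The log2 fold change was 0.09 ± 0.10 (standard error, SE, edgeR adjusted p = 0.544). Without IR24 replicate 1 it was -0.00322.

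The isomerase row (MGP_BALBcJ_G0020158, chromosome 13 from 5492833 to 5498338, plus strand) stands for the step that interconverts the isoprenoid building blocks. It had 36.5, 29.9 and 27.9 CPM in IR24 and 19.4, 18.2 and 19.9 CPM in Sham. Every IR24 library was above every Sham library, with IR24 replicate 1 the highest. The mean was 31.4 ± 4.51 CPM in IR24 and 19.2 ± 0.891 CPM in Sham. This was a 1.64-fold higher level, or 0.71 ± 0.12 on the log2 scale (SE, edgeR adjusted p = 0.00327). Reads shared between Idi1 and Idi2 could not be told apart in this row.

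Fdft1 (MGP_BALBcJ_G0021422, chromosome 14 from 56297574 to 56328954) encodes squalene synthase, the enzyme that commits isoprenoids to sterols. Its level was 95.6, 100 and 94.7 CPM in IR24 and 74.3, 91.1 and 81.8 CPM in Sham. The IR24 libraries lay above the Sham libraries and closer together than these did. The log2 fold change was 0.23 ± 0.09 (SE, edgeR adjusted p = 0.0802).

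Sqle (MGP_BALBcJ_G0021849, chromosome 15 from 56471030 to 56487143) encodes squalene epoxidase, a rate-limiting step that uses oxygen. It had 94.4, 81.1 and 76.5 CPM in IR24 and 61.7, 71.7 and 71.4 CPM in Sham. The groups did not overlap, and Sham replicate 1 was the lowest library. The log2 fold change was 0.30 ± 0.11 (SE, edgeR adjusted p = 0.0556), so that Sqle did not pass the threshold. Over 19 alternatives the adjusted p ran from 0.00812 with library size only to 0.203 without Sham replicate 1, and Sqle was called in 5 of them.

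Lss (MGP_BALBcJ_G0017322, chromosome 10 from 74328311 to 74353855) encodes lanosterol synthase, which closes the rings of the sterol skeleton. Its level was 50.0, 44.1 and 40.9 CPM in IR24 and 33.2, 36.0 and 38.3 CPM in Sham. All IR24 libraries were above all Sham libraries, but the nearest pair, IR24 replicate 3 and Sham replicate 3, differed little. The mean rose from 35.9 ± 2.56 to 45 ± 4.63 CPM, by 0.33 ± 0.11 on the log2 scale (SE, edgeR adjusted p = 0.0395). The call was kept in 10 of 19 alternatives. It was lost without IR24 replicate 1 (log2 fold change 0.24, edgeR adjusted p = 0.0375, under the fold limit) and without IR24 replicate 2 (edgeR adjusted p = 0.0921). It was also lost without Sham replicates 1, 2 and 3 in turn, at edgeR adjusted p = 0.149, 0.112 and 0.0725.

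Dhcr7 (MGP_BALBcJ_G0033267, chromosome 7 from 144622210 to 144640954) encodes 7-dehydrocholesterol reductase, which makes cholesterol itself in the last step of the Kandutsch-Russell branch. It had 33.2, 32.2 and 33.6 CPM in IR24 and 33.6, 40.1 and 37.4 CPM in Sham. The IR24 libraries were close together, and IR24 replicate 3 and Sham replicate 1 were equal to 3 digits. The log2 fold change was -0.17 ± 0.10 (SE, edgeR adjusted p = 0.202), and it was 0.09 with library size only.

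Cyp46a1 (MGP_BALBcJ_G0020044, chromosome 12 from 106676225 to 106704880) encodes cholesterol 24-hydroxylase. Its counts were 2639, 3160 and 3307 in IR24 and 5883, 6994 and 5217 in Sham. This was 58.0, 79.0 and 82.7 CPM against 151, 172 and 152 CPM. The highest IR24 library was far under the lowest Sham library, and IR24 replicate 1 was the lowest of all. The mean fell from 158 ± 12.1 to 73.2 ± 13.3 CPM. Its fold change was -1.11 ± 0.14 on the log2 scale (SE, edgeR adjusted p = 0.00112). Of the 6 members it had the largest change, it was past the threshold in all 19 alternatives, and its log2 fold change lay between -1.25 and -0.85 in them.

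**Figure D2:**
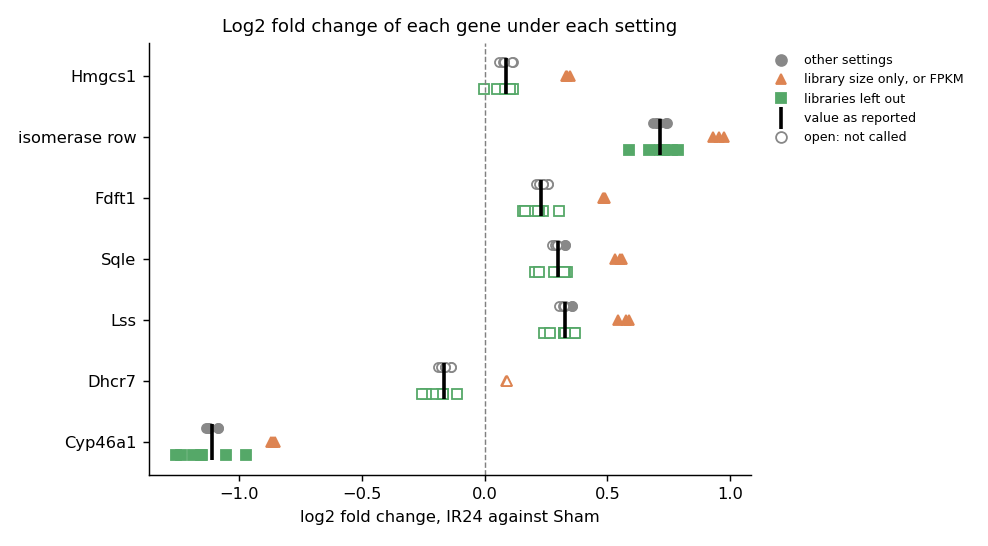
Log2 fold change of each member and of the isomerase row (x axis) under the processing alternatives that change the fit, with filled symbols where the gene was called and a black bar at the value as reported. Cyp46a1 stayed between -1.25 and -0.85, whereas Dhcr7 lay on both sides of 0, at -0.17 as reported and 0.09 with library size only.

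The libraries of IR24 did not depart from their mean alike in all members. In IR24 replicate 1, Hmgcs1 was 11.6%, Sqle 12.4%, Lss 11.2% and the isomerase row 16.1% above the IR24 mean. In the same library Cyp46a1 was 20.8% below that mean, Fdft1 1.23% below it and Dhcr7 0.659% above it.

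Ratios of a pair of members within a library do not depend on the scaling between libraries, and 21 pairs were compared, the isomerase row included. The groups did not overlap in 17 pairs, 9 with a higher and 8 with a lower ratio in IR24. The share of all gene pairs that do so was not computed. Of single genes, 29.3% were apart with IR24 above and 28.1% with IR24 below, so the count of pairs is a description only. Pairs share members, and 3 libraries against 3 cannot give an exact permutation p under 0.1 (0.124 after Benjamini-Hochberg adjustment over the pairs). The log2 ratio of Lss to Dhcr7 counts was 0.59, 0.45 and 0.28 in IR24 and -0.02, -0.16 and 0.04 in Sham. The mean ratio was thus 0.49 higher in IR24 on the log2 scale (exact two-sided permutation p = 0.1). Hmgcs1 relative to Sqle had log2 ratios of 1.55, 1.56 and 1.58 in IR24 and 1.87, 1.75 and 1.73 in Sham, a mean difference of -0.22 (exact two-sided permutation p = 0.1). Sqle relative to Lss had 0.92, 0.88 and 0.90 in IR24 and 0.89, 0.99 and 0.90 in Sham. These neighbouring enzymes therefore kept overlapping ratios, with a mean difference of -0.03 (exact two-sided permutation p = 0.7), whereas Lss and Dhcr7 of the same pathway did not. Lss relative to Cyp46a1 differed by 1.45 on the log2 scale (exact two-sided permutation p = 0.1).

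Levels per length were compared on the deposited FPKM. In Sham, Cyp46a1 at 68.3 ± 4.71 and Hmgcs1 at 66.3 ± 1.84 FPKM were the highest, with overlapping ranges. Fdft1 followed at 46.4 ± 4.39 FPKM, apart from both neighbours. Dhcr7 at 27.3 ± 2.22, the isomerase row at 24.8 ± 1.31 and Sqle at 22.4 ± 1.78 FPKM overlapped their neighbours among these, and Lss was apart as the lowest at 11.8 ± 0.831 FPKM. In IR24 the order began with Hmgcs1 at 84.2 ± 12.7, Fdft1 at 65.0 ± 2.96 and the isomerase row at 48.7 ± 9.34 FPKM, each apart from the next. Cyp46a1 was the fourth at 37.5 ± 5.31 FPKM and overlapped Sqle at 33.1 ± 5.24 FPKM, which overlapped Dhcr7 at 29.0 ± 1.60 FPKM. Lss was again the lowest at 17.7 ± 2.65 FPKM. The FPKM were not scaled by TMM. The lengths behind them equalled the listed gene length within 1% in 38.8% of genes. They were shorter for Lss, Sqle, Dhcr7 and the isomerase row (2779, 2782, 1242 and 708 against 6992, 4468, 2749 and 768 bases). With CPM per kilobase of the listed length, Cyp46a1 and Hmgcs1 in Sham at 74.6 ± 5.71 and 72.4 ± 2.42 and Hmgcs1 in IR24 at 76.8 ± 7.88 still led, and Lss was still the lowest. On that scale Dhcr7 in Sham stood behind the isomerase row and Sqle, at 13.5 ± 1.19. The isomerase row in Sham was then apart from Sqle, and Sqle overlapped Dhcr7. In IR24 the isomerase row then overlapped Cyp46a1, whereas Cyp46a1, Sqle and Dhcr7 were each apart from the next.

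The other enzymes of synthesis gave the pathway around the members. Of 16 further enzymes measured, 5 were called higher and 0 lower by edgeR at the same rule, and 11 were not called. Together with the members, 6 of 21 synthesis enzymes were called higher and 0 lower, beside 21.8% and 19.9% of all genes. At an unadjusted p under 0.05 by edgeR, 11 of the 21 were higher and 1 lower. The share of all genes at that looser rule was not computed, so these counts are a description only. By DESeq2, 7 were called higher and 1 lower (Tm7sf2, adjusted p = 0.0425), beside 4278 and 4108 of 18569 genes. The IR24 libraries lay above the Sham libraries in 11 and below in 2, beside 29.3% and 28.1%. The median log2 fold change of the 21 was 0.21 against 0.03 over all genes. With library size only, 14 of 21 were called higher and 0 lower, beside 6334 and 2027 of 18569 genes, where the median of all genes was 0.28. Without Sham replicate 1, 2 or 3 in turn, 3 of 21 were called higher, and without IR24 replicate 1, 6 were called higher and 2 lower. Over all genes, 2904 to 2981 were called higher without a Sham replicate, and 4010 higher and 3966 lower without IR24 replicate 1. In the 4 libraries with choroid plexus RNA, 2 were called higher, beside 2796 of 18816 genes. Summed over the 21 enzymes, the level was 1268, 1171 and 1112 CPM in IR24 and 1001, 1073 and 1075 CPM in Sham. The mean sum was 12.7% higher in IR24, and 34.9% higher in CPM not scaled by TMM. Hmgcs1 had the highest CPM of the 21 in every library.

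Msmo1, the sterol C4-methyl oxidase, had 89.0, 96.0 and 98.4 CPM in IR24 and 61.4, 63.1 and 71.0 CPM in Sham. It rose by 0.54 ± 0.09 on the log2 scale (SE, edgeR adjusted p = 0.00287). Cyp51, the lanosterol demethylase, had 99.9, 94.4 and 80.7 CPM in IR24 and 62.0, 61.2 and 74.3 CPM in Sham. It rose by 0.48 ± 0.12 (SE, edgeR adjusted p = 0.0126). Ebp, the sterol isomerase, had 28.7, 21.6 and 20.5 CPM in IR24 and 15.2, 17.1 and 15.5 CPM in Sham. It rose by 0.57 ± 0.15 (SE, edgeR adjusted p = 0.0167). In all 3 genes, which act between lanosterol and cholesterol, every IR24 library lay above every Sham library. Msmo1 was still called when any single library was left out, whereas Cyp51 was lost without Sham replicate 1 or 2 (edgeR adjusted p = 0.0585 and 0.0627) and Ebp without Sham replicate 1 or 3 (edgeR adjusted p = 0.0666 and 0.0651).

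Acat2, the acetyl-CoA thiolase of the first step, had 18.2, 17.0 and 18.8 CPM in IR24 and 12, 12.5 and 13.4 CPM in Sham. It rose by 0.52 ± 0.11 on the log2 scale (SE, edgeR adjusted p = 0.00731). Fdps, farnesyl diphosphate synthase, had only 89, 66 and 61 counts in IR24 and 41, 33 and 26 counts in Sham. Its log2 fold change was 0.97 ± 0.28 (SE, edgeR adjusted p = 0.0265), and it is given as uncertain, because the counts are low and Fdps has pseudogene copies in the genome. It was lost without IR24 replicate 1 or 2 and without Sham replicate 2 or 3, at edgeR adjusted p = 0.0668, 0.0632, 0.0827 and 0.0903.

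Lbr and Hsd17b7, a sterol reductase and a sterol ketone reductase, lay above Sham in all IR24 libraries with log2 fold changes of 0.36 and 0.29 (edgeR adjusted p = 0.0555 and 0.0724). Tm7sf2, the other sterol C14 reductase, had 10.9, 9.71 and 10.3 CPM in IR24 and 12.2, 13.6 and 12.5 CPM in Sham, which gave -0.31 on the log2 scale (edgeR adjusted p = 0.0706). Leaving out IR24 replicate 1 brought Lbr to 0.36 (edgeR adjusted p = 0.0423) and Tm7sf2 to -0.36 (edgeR adjusted p = 0.0393), past the threshold. Mvk, Pmvk, Mvd, Ggps1, Nsdhl and Sc5d overlapped between groups, with log2 fold changes from -0.12 to 0.20.

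**Figure D3:**
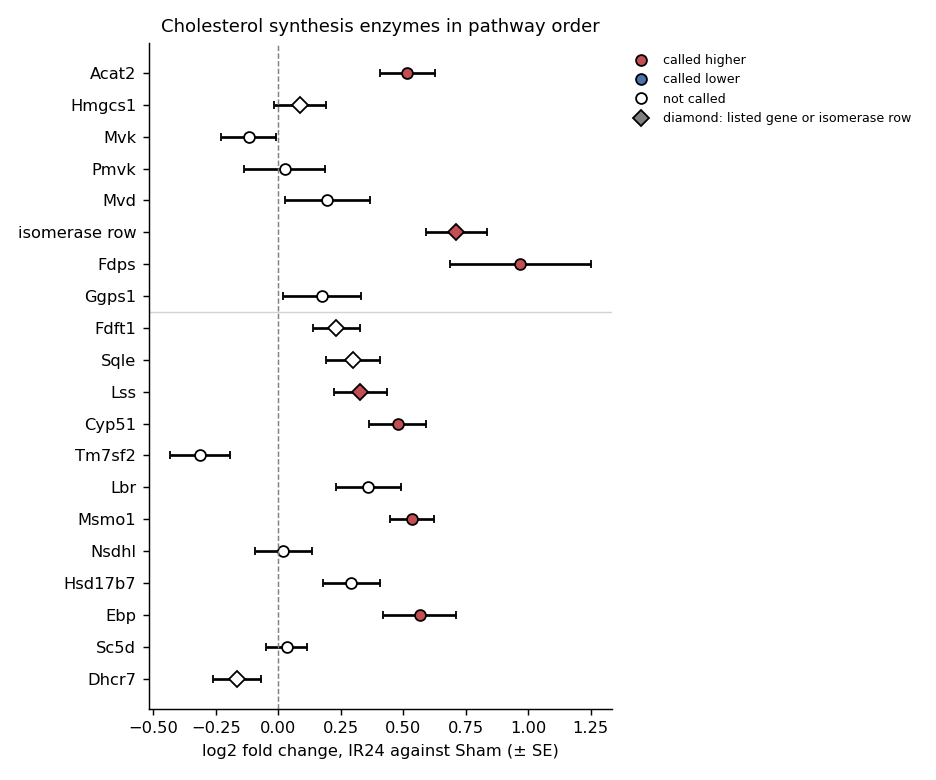
Log2 fold change of IR24 against Sham with its SE (x axis) for synthesis enzymes in pathway order from top to bottom, with a grey line between the steps before and after squalene synthase and filled symbols where the gene was called. Filled symbols lie only to the right of 0, from 0.33 for Lss to 0.97 for Fdps, and the lowest value is Tm7sf2 at -0.31.

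Of 9 genes of the SREBP system, 2 were called higher, 3 were called lower and 4 were not called, beside 21.8% higher and 19.9% lower of all genes, with a median log2 fold change of -0.25. Srebf2, which encodes SREBP2, had 203, 188 and 188 CPM in IR24 and 249, 282 and 250 CPM in Sham. It fell by 0.43 ± 0.10 on the log2 scale (SE, edgeR adjusted p = 0.00899). Mbtps1 and Mbtps2, the proteases that release SREBP, fell by 0.37 and 0.35 (edgeR adjusted p = 0.00905 and 0.0155). All 3 were below Sham in every IR24 library. None of the 3 was called with library size only, where their log2 fold changes were -0.17, -0.11 and -0.10. Mbtps2 was also lost without Sham replicate 1 or 3 (edgeR adjusted p = 0.0571 and 0.0699).

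Scap, the sterol-sensing escort of SREBP, had 81.6, 79.5 and 76.1 CPM in IR24 and 90.9, 98.1 and 93.0 CPM in Sham. Its log2 fold change of -0.25 was under the fold limit (edgeR adjusted p = 0.0311), and without IR24 replicate 1 it was -0.28 and past it (edgeR adjusted p = 0.00344). Srebf1, which encodes SREBP1, also had a log2 fold change of -0.25 (edgeR adjusted p = 0.0600). With library size only, Scap and Srebf1 lay on the other side of 0, at 0.0079 and 0.0062. Insig1, which holds SCAP in the endoplasmic reticulum and is itself a target of SREBP, went the other way. It had 104, 101 and 90.1 CPM in IR24 and 71.4, 69.4 and 71.3 CPM in Sham, a rise of 0.48 ± 0.08 on the log2 scale (SE, edgeR adjusted p = 0.00343). Nr1h3, the liver X receptor alpha that senses oxysterols, rose by 0.71 (edgeR adjusted p = 0.0209) at 181 to 271 counts in IR24 against 98 to 148 in Sham. That call was lost without IR24 replicate 2, Sham replicate 1 or Sham replicate 3, at edgeR adjusted p = 0.0627, 0.0676 and 0.0858. Nr1h2, the liver X receptor beta, was above Sham in all IR24 libraries with a log2 fold change of 0.40 (edgeR adjusted p = 0.0699), and of 0.22 without IR24 replicate 1.

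Stard4, a sterol carrier, was above Sham in all IR24 libraries with a log2 fold change of 0.24 (edgeR adjusted p = 0.157), and of 0.10 without IR24 replicate 1. For the 13 genes of the lists of regulators and of sterol uptake and transport, 4 were called higher and 3 lower, beside 21.8% and 19.9% of all genes. With library size only they were 6 and 0, beside 6334 and 2027 of 18569 genes. In the 4 libraries with choroid plexus RNA they were 3 and 0, beside 2796 and 2459 of 18816 genes.

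Among the other enzymes that make or clear oxysterols, Ch25h had the largest change. Ch25h, the cholesterol 25-hydroxylase known from activated macrophages, had 655, 392 and 303 counts in IR24 and 35, 23 and 16 counts in Sham. This was 14.4, 9.81 and 7.58 CPM against 0.896, 0.566 and 0.465 CPM, a rise of 4.03 ± 0.34 on the log2 scale (SE, edgeR adjusted p = 0.000344). It thus differed in the opposite direction from Cyp46a1, another cholesterol hydroxylase. Cyp11a1, which cleaves the cholesterol side chain, had 5, 22 and 41 counts in IR24 and 82, 76 and 89 counts in Sham. It fell by 1.97 ± 0.61 (SE, edgeR adjusted p = 0.0335), and was lost without IR24 replicate 2 and without each Sham replicate, at edgeR adjusted p from 0.0766 to 0.0967. Cyp7b1, which clears 25-hydroxycholesterol, had a log2 fold change of -0.26 (edgeR adjusted p = 0.0986), and of -0.36 without IR24 replicate 3 (edgeR adjusted p = 0.0471). Of 7 genes in the list, 5 could be tested, with 1 called higher and 1 lower, beside 21.8% and 19.9% of all genes. Hsd3b7 and Cyp7a1 had 0 counts in all 6 libraries, which allows up to 3 counts in each.

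**Figure D4:**
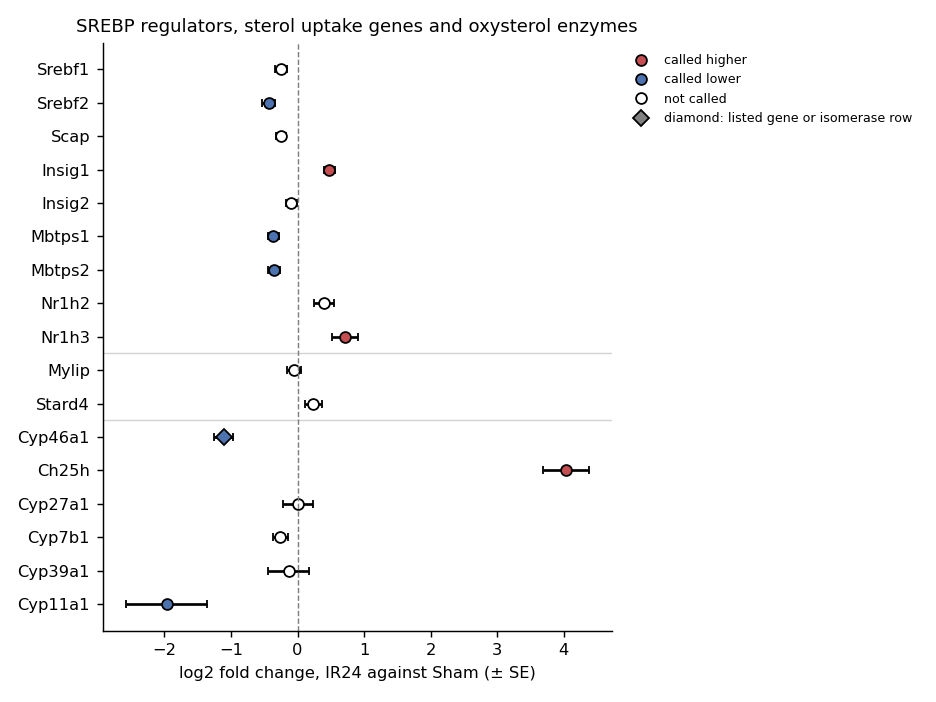
Log2 fold change of IR24 against Sham with its SE (x axis) for regulators of the SREBP system, Mylip and Stard4, and Cyp46a1 with the other oxysterol enzymes, separated by grey lines, with filled symbols where the gene was called. Ch25h at 4.03 and Cyp46a1 at -1.11 lie on opposite sides of 0.

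In bulk tissue, fewer cells of a type and less RNA per cell cannot be told apart. Markers of the cell types moved with the groups. Those said below to have risen or fallen were called higher or lower by edgeR, beside 21.8% and 19.9% of all genes. All 10 neuron markers fell, with a median log2 fold change of -1.01 and summed levels of 2550 to 5159 CPM in IR24 against 8839 to 9282 CPM in Sham. Rbfox3, which encodes the neuronal nuclear protein NeuN, fell by 0.75 on the log2 scale (edgeR adjusted p = 0.0168). Of 10 astrocyte markers, 3 rose and 6 fell, with summed levels of 5182 to 5472 CPM in IR24 against 5698 to 5994 CPM in Sham. Of 10 oligodendrocyte markers, 2 rose and 3 fell, with 6563 to 7696 CPM in IR24 against 7673 to 9447 CPM in Sham. At an unadjusted p under 0.05 by edgeR, 4 of them were higher and 4 lower, a rule for which the share of all genes was not computed. Of 10 microglia markers, 6 rose and 2 fell, with 634 to 913 CPM in IR24 against 386 to 419 CPM in Sham. Of 6 markers of oligodendrocyte precursors, 0 rose and 3 fell by edgeR (0 rose also at an unadjusted p under 0.05), with 273 to 300 CPM in IR24 against 364 to 407 CPM in Sham. Of 8 endothelial markers, 7 rose and 1 fell, with 472 to 760 CPM in IR24 against 288 to 291 CPM in Sham. Of 7 leukocyte markers tested, 5 rose and 0 fell by edgeR (0 also at an unadjusted p under 0.05), with 25.8 to 71.5 CPM in IR24 against 8.25 to 9.01 CPM in Sham. Of the leukocyte markers, Cd3e, which defines T cells, had 0 counts in at least 1 library. The part of these markers in the differences of the enzymes was not tested.

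Cyp46a1 was also set against these markers within each library, a measure added after the data were seen. Relative to the mean log2 level of the 10 neuron markers, Cyp46a1 lay at -1.88, -2.25 and -2.30 in IR24 and at -2.16, -2.02 and -2.13 in Sham. The groups overlapped, with an SD of 0.226 in IR24 and 0.0734 in Sham, and the mean difference was -0.04 on the log2 scale (exact two-sided permutation p = 0.8). Cyp46a1 thus had a lower level per library. A difference relative to the mean of these 10 markers was not detectable with 3 libraries a group. The log2 fold changes of the markers ran from -1.37 to -0.29, against -1.11 for Cyp46a1 and -0.75 for Rbfox3. Ratios to single markers were not tested, and some would differ from the ratio to the mean. Relative to the markers of pyramidal and granule cells it differed by 0.67, with overlap (exact two-sided permutation p = 0.2). Relative to astrocyte markers it was 1.09 lower on the log2 scale and relative to oligodendrocyte markers 1.15 lower, without overlap (exact two-sided permutation p = 0.1 for each, the smallest possible).

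The synthesis enzymes differed among themselves on that measure. Lss relative to astrocyte markers was -2.22, -2.43 and -2.58 in IR24 and -2.85, -2.72 and -2.71 in Sham, a mean difference of 0.35 without overlap (exact two-sided permutation p = 0.1). Relative to oligodendrocyte markers Lss differed by 0.29, also without overlap (exact two-sided permutation p = 0.1). Fdft1 and Sqle were 0.26 and 0.32 higher relative to astrocyte markers without overlap, but overlapped relative to oligodendrocyte markers at 0.21 and 0.27. The isomerase row was apart from Sham against both lists, at 0.72 and 0.66. Hmgcs1 differed by 0.11 relative to astrocyte markers, with overlap (exact two-sided permutation p = 0.7). Dhcr7 lay on the other side of 0 at -0.13 and -0.19, with overlap against both lists (exact two-sided permutation p = 0.2 and 0.4). Relative to the neuron markers, which fell themselves, the 5 named synthesis members and the isomerase row were 0.92 to 1.77 higher on the log2 scale.

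**Figure D5:**
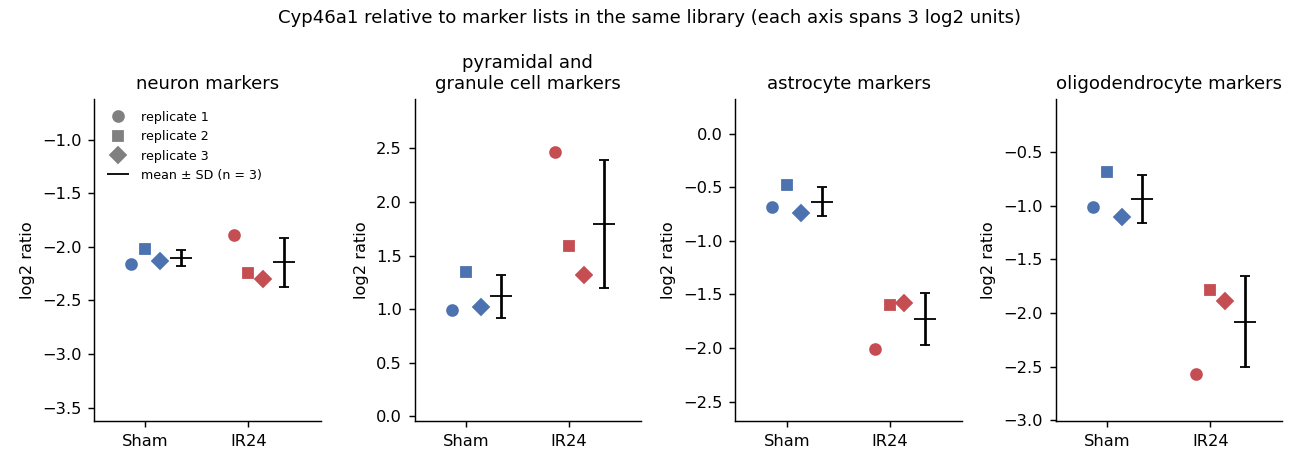
Log2 ratio of Cyp46a1 to the mean level of 4 marker lists in the same library (y axes, each spanning 3 log2 units) for the 3 Sham and 3 IR24 libraries, with the mean ± SD as a bar. The groups overlap against neuron markers, with a mean difference of -0.04, and are apart against astrocyte and oligodendrocyte markers, with -1.09 and -1.15.

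Genes whose level ran most alike over the 6 libraries were listed by Pearson's r of log2 CPM, as a description, since the libraries share their groups. For Cyp46a1 they were Brsk1, Klc1 and Cdk16, with r of 0.9998, 0.9995 and 0.9994. For the isomerase row they were Ccnl2, Ppic and Morc2a (r of 0.9998, 0.9997 and 0.999). For Sqle they were Crtap, Ddx51 and Fbn1 (r of 0.999, 0.998 and 0.996) and for Lss Sh3tc1, Il4i1 and Plpp2 (r of 0.999, 0.997 and 0.997). For Hmgcs1 they were Xpc, Hyou1 and Ext2 (r of 0.998, 0.998 and 0.995), for Fdft1 Fkbp4, Coq7 and Daxx (r of 0.998, 0.996 and 0.992), and for Dhcr7 Gm6563, Mlst8 and Atg7 (r of 0.995, 0.995 and 0.991). No gene of cholesterol synthesis was among these 21 genes, picked as 3 per member from 16193 named genes. Such a pick leaves little room for any given gene, so the absence describes the list only. Between members, r was 0.981 for Sqle and Lss, 0.475 for Hmgcs1 and Fdft1 and -0.487 for Lss and Dhcr7. After the group means were taken off, r for these pairs was 0.955, 0.258 and 0.347. For Cyp46a1 and the isomerase row r was -0.998, and -0.985 after the group means were taken off.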

How the data were processed

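RNA-seq of mouse hippocampus was analysed in 3 IR24 and 3 Sham libraries, grouped by their titles. Per the study's methods, the authors aligned reads with TopHat 2 to an Ensembl genome and obtained the deposited counts per gene with HTSeq 0.6.1p2. The submitters' processing notes name Bowtie 0.12.2 and the build mm8, whereas the gene identifiers and positions are of the BALB/cJ annotation and the mice were C57BL/6 (C57BL/6J in the methods). Use of the strand is not given in the sources used here. The authors also deposited FPKM per library, which they computed from counts and gene length. Columns of the authors' own comparison (group means, fold change, p-value, adjusted p-value and call) were not used. The 41390 lines held 41386 genes, as 4 lines had been split and were rejoined.

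Counts were fitted with edgeR 4.0.16 in R 4.3.3 (filterByExpr, TMM, glmQLFit with robust estimation, glmQLFTest, no covariates), with Benjamini-Hochberg adjustment over the 18569 genes that passed the filter. Calls needed an adjusted p below 0.05 together with a change of more than 1.2-fold up or down. The study states these limits for the p-value and the fold, and the adjustment was added here. The SE is the size of the log2 fold change divided by the square root of F. The fit was tried on simulated counts in which 200 genes were changed. In the data 7756 of 18569 genes were called, so that trial does not test the TMM scaling. A total of 37493042 to 44788547 counts per library put 1 count at 0.022 to 0.0291 CPM. The floor of 3 counts covers counting error only, and PCR copies are not told apart. The SE and SD printed with ± also hold the spread between libraries.

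Alternatives were other scaling factors and filters, DESeq2 1.42.0, limma 3.58.1 (voom on counts, and log2(FPKM + 1) or log2(FPKM + 0.1)), libraries left out, a replicate block and other fold limits. Within-library ratios were compared by exact permutation tests (scipy 1.17.1). Ratios to markers used log2(CPM + 0.5). The genes named were the members, the genes of the pathway lists, for each member the 3 named genes most like it, and a few defining markers, of which Rbfox3 and Ttr are given. Cd3e was chosen after its values were seen. Some genes of the lists are not reported here by name, and counts and sums over a list include them. Members and lists were chosen with earlier results of these data known. The position of the unnamed isomerase row was found from its annotation and its neighbours. Promoters of RefSeq (GRCm38.p6) were searched on both strands. Protein sequences were not used here.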

Additional observations from a re-analysis of the deposited data

How the results depend on the processing

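The result that depended least on the processing was the lower level of Cyp46a1, which was called under all 19 alternatives. Leaving out the TMM scaling raised the log2 fold changes of the synthesis enzymes and of genes at large. The median over all genes moved from 0.03 to 0.28 with library size only, and Cyp46a1 from -1.11 to -0.86. With library size only, the log2 fold changes of Hmgcs1, Fdft1 and Sqle were 0.35, 0.49 and 0.56 and passed the threshold, that of Dhcr7 turned to 0.0910, and 5 members and 10 other synthesis enzymes were called. Srebf1 and Scap then turned to 0.0062 and 0.0079. With limma on log2(FPKM + 1) the values were 0.33, 0.48 and 0.53, 0.0890 for Dhcr7, 5 members and 9 enzymes, and 0.0075 and 0.0049 for Srebf1 and Scap. With limma on log2(FPKM + 0.1) they were 0.34, 0.49 and 0.55, 0.0919, 5 and 10, and 0.0077 and 0.0049. These alternatives leave out the TMM factors, and the FPKM ones also add a constant. Over all 18569 genes, 6334 were called higher and 2027 lower with library size only. The numbers were 6075 and 2015 with log2(FPKM + 1), and 6286 and 2038 with log2(FPKM + 0.1).

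Sqle was called at 0.33 both with upper quartile factors and with at least 10 counts in every library. Under the latter filter 1 oxysterol enzyme was called, since Cyp11a1 was not tested, beside 3750 higher and 3497 lower of 16421 genes. Without a count filter Lss was at 0.30 and 1 member was called, beside 3806 higher and 3526 lower of 28949 genes. With a fold change over 2, Lss at 0.33 and the isomerase row at 0.71 were under the limit by construction. At that limit 1 member, 0 other synthesis enzymes and 2 SREBP or sterol uptake genes were called. Over all 18569 genes, 1893 were called higher and 867 lower there. In the 4 libraries with choroid plexus RNA, Lss was at 0.33 and not called. The counts were 1 member, 2 other synthesis enzymes and 3 SREBP or sterol uptake genes, with fewer samples to test on. Over all genes, 2796 higher and 2459 lower of 18816 were called there.

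Leaving out 1 library in turn gave log2 fold changes from 0.24 to 0.37 for Lss and from -0.00322 to 0.11 for Hmgcs1. Between 1 and 2 members, 3 and 8 other synthesis enzymes, and 1 and 3 oxysterol enzymes were then called. Over all genes, 2904 to 4010 were then called higher and 2426 to 3966 lower. With the replicate block, Lss was at 0.33 (edgeR adjusted p = 0.101) and 1 member was called, beside 3274 higher and 3058 lower of 18569 genes. Libraries with the same number did not deviate together (correlations over 18569 genes of -0.139, 0.0426 and -0.236, and 0 libraries best correlated with their own number), so the numbers were not taken as pairs.

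The differences between groups in the log2 ratios to Cyp46a1 were the same with FPKM. Gene length and library size cancel there by construction, so FPKM gave no separate check of them. Where a gene had under 100 counts a library, as Fdps and Cyp11a1, depth limits its precision.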
